A study of Mus musculus with 2 samples.

Results

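The 6 genes described here are the ligands Pdgfa, Pdgfb, Pdgfc and Pdgfd and the receptors Pdgfra and Pdgfrb of platelet-derived growth factor (PDGF). They were taken by symbol from the 31053 genes in the count tables of a single-cell RNA sequencing study of the mouse aortic arch. Both groups of animals were male Apoe-/- mice on a C57BL/6 background, which lack apolipoprotein E and develop atherosclerosis, and both were 16 weeks old. The ND group received a normal diet and the HFD group a high-fat, high-cholesterol diet, for 12 weeks. The cells of 2 aortas were pooled into 1 library per diet, so no comparison between the diets has a replicate and no test was made. All intervals below are 95% intervals that cover counting error only.

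PDGF ligands are dimers that bring together and activate the tyrosine kinase receptors alpha, encoded by Pdgfra, and beta, encoded by Pdgfrb. The A and B chains can be kept close to the secreting cell by a basic retention motif, whereas the C and D chains are secreted with a CUB domain that proteases such as tissue plasminogen activator and urokinase remove. In vessels the best known pair is endothelial PDGF-B and mural PDGF receptor beta, through which pericytes and smooth muscle cells are recruited, and PDGF is a classical growth factor of smooth muscle cells and fibroblasts in atherosclerosis.

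Counts are of unique molecular identifiers (UMIs), each standing for 1 captured RNA molecule, and a level is the UMIs of a gene scaled to 1000000 UMIs of a group of cells (CPM). After the study's limits on genes, UMIs and mitochondrial RNA, 5416 ND cells with a median of 3732 UMIs and 2739 HFD cells with a median of 5336 UMIs were kept. Cells were placed in an endothelial, mural, fibroblast or immune gate when at least 3 markers of that gate, and of no other, had a UMI. In the ND library the gates held 2324, 36, 973 and 1402 cells in that order, and in the HFD library 1150, 12, 412 and 667 cells. A further 473 ND and 412 HFD cells passed several gates and are called mixed. No PDGF gene was used as a marker. Within each gate the summed level of the gate's own markers was between 3729 and 26104 CPM, and that of any other gate's markers at most 272 CPM. The gating rule itself sets both values, which therefore describe the gates and do not test their names. The 2 libraries differed in ways that touch all ratios between them. The mitochondrial limit and the other limits left out 11486 of 14225 HFD barcodes and 4818 of 10234 ND barcodes, summed haemoglobin RNA was 70.2 to 5763 CPM in the ND gates and 7682 to 71989 CPM in the HFD gates, and RNA of 3 airway club cell markers was 146 to 4533 CPM in the ND gates and at most 0.684 CPM in the HFD gates. The part of these differences in the ratios below was not tested. Of all barcodes 39 were shared by the libraries, and 1 of them was kept in both.

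The RefSeq promoter table of GRCm38.p6 held windows for 4 of the 6 genes. The 250 bases before the start are shown for the receptor of the fibroblast gate and for the 2 CUB domain ligands, whose windows overlap no annotated exon. Capitals mark TATAAA. Both strands were searched for GGGCGG and TATAAA, which 32.7% and 12.4% of the 32851 windows of this length hold. Neither motif was in the Pdgfra or Pdgfc window, and TATAAA was once in the Pdgfd window, 160 bases before the start. A match describes the letters and is not a measured site.
Pdgfra (chr5:75152001-75152250, plus strand): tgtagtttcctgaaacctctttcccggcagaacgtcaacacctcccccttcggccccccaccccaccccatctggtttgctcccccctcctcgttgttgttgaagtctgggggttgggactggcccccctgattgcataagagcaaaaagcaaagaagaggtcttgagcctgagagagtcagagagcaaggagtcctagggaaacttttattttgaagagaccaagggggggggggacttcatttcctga
Pdgfc (chr3:81036166-81036415, plus strand): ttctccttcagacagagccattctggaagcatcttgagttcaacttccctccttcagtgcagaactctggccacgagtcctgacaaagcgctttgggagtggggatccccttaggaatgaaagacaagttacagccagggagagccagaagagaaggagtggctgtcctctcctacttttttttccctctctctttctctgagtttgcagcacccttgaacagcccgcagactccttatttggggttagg
Pdgfd (chr9:6168236-6168485, plus strand): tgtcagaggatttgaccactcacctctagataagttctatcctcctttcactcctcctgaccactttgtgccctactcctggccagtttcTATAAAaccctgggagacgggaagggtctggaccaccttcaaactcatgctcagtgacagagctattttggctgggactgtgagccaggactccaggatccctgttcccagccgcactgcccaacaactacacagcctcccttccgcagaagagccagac

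The members differed in the gate where their level was highest. Pdgfb was a gene of the endothelial gate, Pdgfra of the fibroblast gate, Pdgfrb and Pdgfa were highest in the mural gate, and Pdgfc and Pdgfd had no single leading gate. In both libraries 4 of the 6 members were at least 2-fold higher in 1 gate than in every other gate. Of 13692 genes with enough UMIs, 21.2% met the same rule. Mural-led genes made up 1.56%, endothelial-led genes 6.03%, fibroblast-led genes 5.62% and immune-led genes 7.96% of these genes.

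**Figure D1:**
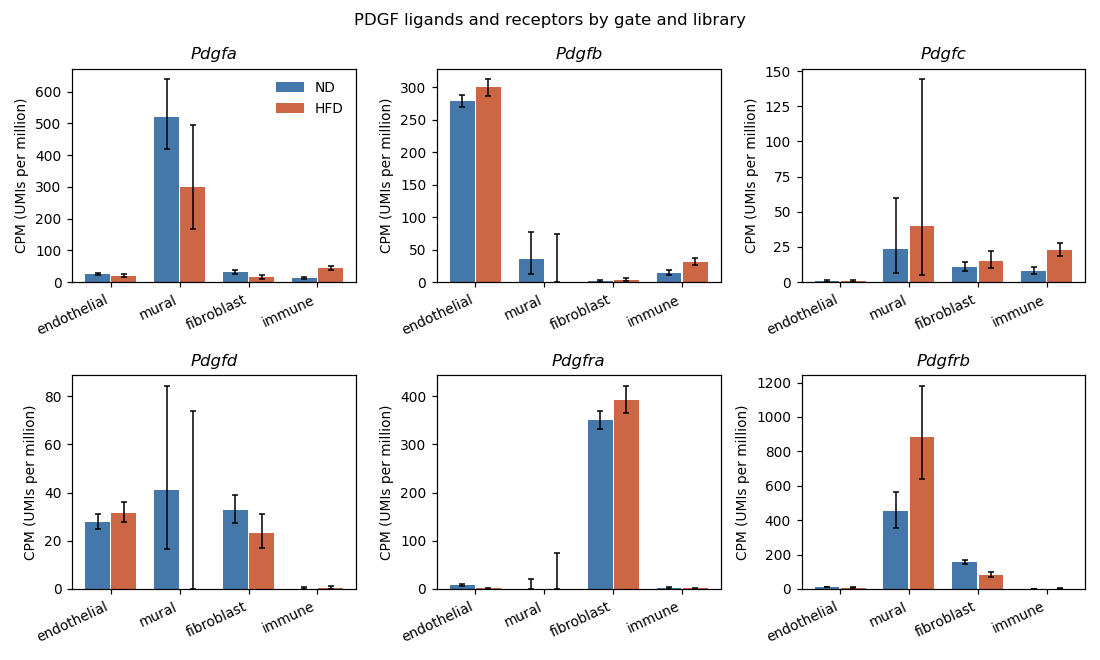
CPM (y axis, UMIs per 1000000 UMIs of the gate) of each gene in the 4 gates (x axis), with blue bars for the ND library and orange bars for the HFD library. Lines are exact Poisson 95% intervals. Pdgfb stands out in the endothelial gate, Pdgfra in the fibroblast gate, and Pdgfa and Pdgfrb in the mural gate, where only 36 and 12 cells were counted.

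The gate with the highest level did not hold most of the RNA where it had few cells. Of the 925 Pdgfa UMIs in kept ND cells 9.62% were in the mural gate, 30.05% in the endothelial gate and 25.8% in mixed cells. Of 1115 ND and 587 HFD UMIs of Pdgfrb, the mural gate held 6.91% and 7.5%, and mixed cells 25.7% and 55.0%. In the HFD library 201 of the 323 Pdgfrb UMIs of mixed cells were in the 95 cells that passed both the endothelial and the mural gate. Pdgfb and Pdgfra were the most concentrated, with 82.9% and 75.1% of Pdgfb UMIs in the endothelial gate and 80.8% and 78.9% of Pdgfra UMIs in the fibroblast gate of the ND and HFD library.

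**Figure D2:**
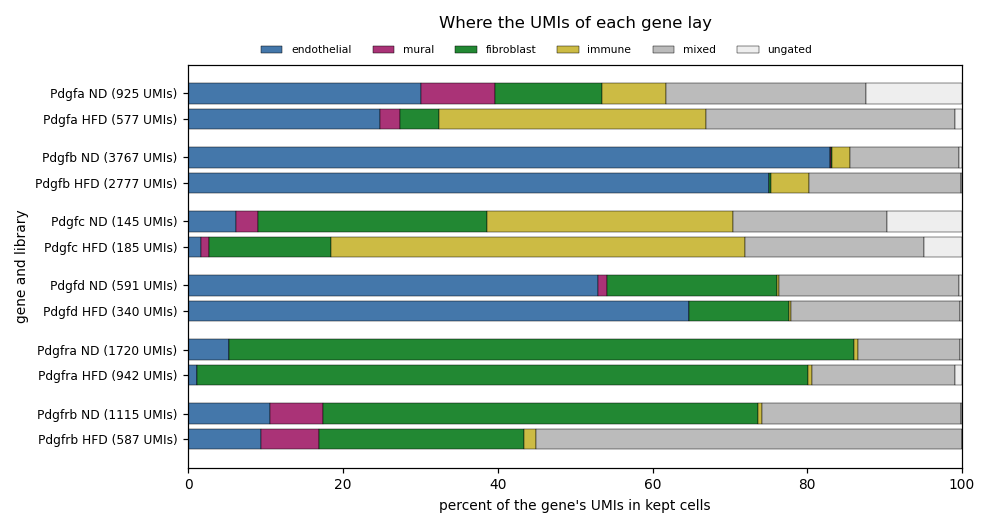
Percent of each gene's UMIs in kept cells (x axis) that lay in each gate, in mixed cells or in ungated cells, 1 bar per gene and library, with the total UMIs in the label. Pdgfb is mostly endothelial and Pdgfra mostly fibroblast in both libraries, while the mixed part of Pdgfrb is 25.7% in ND and 55.0% in HFD.

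Pdgfa encodes the A chain, which as a dimer binds receptor alpha. The gene lies on chromosome 5 of mm10 (138976014 to 138997370, minus strand, GENCODE M21) and is overlapped by an antisense transcript, as are Pdgfb, Pdgfc and Pdgfra. The sources used here do not say whether strand was used in counting. In the mural gate Pdgfa was at 521 CPM (418 to 641, 89 UMIs in 36 cells) in ND and 300.3 CPM (168 to 495, 15 UMIs in 12 cells) in HFD. These levels were 16.1-fold above the next gate in ND, the fibroblast gate, and 6.62-fold above the next gate in HFD, the immune gate. The subgroups of the mural gate were cells richer in contractile RNA (Myh11, Cnn1, Lmod1, Synpo2) and cells richer in pericyte RNA (Kcnj8, Abcc9, Higd1b, Cox4i2). Contractile cells had 545 CPM (434 to 676, 29 cells) in ND and 531 CPM (291 to 891, 5 cells) in HFD, and pericytes had 321 CPM (118 to 699.6, 6 UMIs) in ND and 42.4 CPM (1.07 to 236, 1 UMI) in HFD. The contractile levels of the 2 libraries overlapped, and a single UMI sets the HFD pericyte level.

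Pdgfa was also unequal within the endothelium. Luminal cells, called by Cytl1 and Vcam1, were at 96.3 CPM (80.6 to 114) in ND and 91.8 CPM (69.6 to 119) in HFD. Capillary cells, called by Gpihbp1 and Rgcc, were at 11.5 CPM (9.16 to 14.3) in ND and 9.07 CPM (6.48 to 12.4) in HFD. Arteriolar cells, called by Stc1, Hey1 and Sema3g, were at 12.7 CPM (8.34 to 18.4) in ND, which overlapped capillary cells, and at 23.2 CPM (16.7 to 31.5) in HFD, above them. Luminal cells were above capillary cells by 3.06 on the log2 scale in ND and by 3.34 in HFD, with no overlap of the intervals. In the luminal subgroup 73 of 201 ND cells and 35 of 80 HFD cells had a Pdgfa UMI, against 64 of 1681 and 33 of 800 capillary cells and 4 of 739 B or T cells of ND (0.541%), the latter at a median of 3139 UMIs against 5266 in ND luminal cells. Outside the 4 gates, mesothelial cells (Upk3b, Msln, Lrrn4) of the ND library were at 62.8 CPM (46.5 to 83.0, 34 cells).

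Pdgfb encodes the B chain, which binds both receptors, and lies on chromosome 15 (79995874 to 80014977, minus strand). In the endothelial gate it was at 279 CPM (269 to 289, 3124 UMIs) in ND and 300.2 CPM (288 to 313, 2086 UMIs) in HFD. A Pdgfb UMI was seen in 57.0% of ND and 68.3% of HFD endothelial cells, and in 23.3% and 23.7% after each cell was thinned to 1000 UMIs, which removes the difference in depth. In B or T cells of the ND library, taken as a background, 12 of 739 cells (1.62%) had a Pdgfb UMI, at a median of 3139 UMIs against 3486 in the endothelial gate. In the fibroblast gate 6 Pdgfb UMIs were counted in each library.

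Luminal cells, which were above capillary and arteriolar cells for Pdgfa, were below both for Pdgfb. Arteriolar cells were at 385 CPM (359 to 412) in ND and 313 CPM (288 to 340.3) in HFD. Capillary cells were at 302 CPM (289 to 315) and 326 CPM (309 to 343). Luminal cells were at 86.1 CPM (71.2 to 103) and 121 CPM (95.1 to 152), and 21 of the 75 luminal Pdgfb UMIs of the HFD library came from 1 cell. In ND the order arteriolar, capillary, luminal had no overlapping intervals, and in HFD arteriolar and capillary cells overlapped. The lymphatic subgroup of the ND library, called by Ccl21a, Mmrn1 and Prox1, was at 79.3 CPM (56.9 to 108), a level within the interval of luminal cells. Of its 41 Pdgfb UMIs 12 were in 1 cell. Of its 43 cells, 12 that are described below had no UMI of Ccl21a or Mmrn1 and carried Dcn, so the name may not hold for them. Macrophages, called by C1qa, C1qb and C1qc, had 34.7 CPM (26.4 to 44.9) in ND and 34.5 CPM (28.3 to 41.6) in HFD.

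Pdgfc encodes a CUB domain ligand that mainly binds receptor alpha, and lies on chromosome 3 (81036416 to 81214040, plus strand). It was sparse, with 145 UMIs in kept ND cells and 185 in kept HFD cells. The immune gate was at 7.9 CPM (5.78 to 10.5) in ND and 22.6 CPM (18.4 to 27.5) in HFD, and the fibroblast gate at 10.8 CPM (7.84 to 14.6) in ND and 15.3 CPM (10.3 to 22.0) in HFD. The mural gate had 4 UMIs in ND and 2 in HFD, too few to place it. Of the 46 immune UMIs of the ND library 45 were in macrophages, and of the 99 of the HFD library all 99. Among macrophages those with the resident markers Lyve1, Folr2 and F13a1 held most of them. Resident macrophages had 36.5 CPM (26.2 to 49.5, 41 UMIs) in ND and 55.0 CPM (42.6 to 69.8, 67 UMIs) in HFD. Foam-type macrophages, called by Trem2, Gpnmb and Spp1, had 21.8 CPM (4.50 to 63.7, 3 UMIs) in ND and 21.1 CPM (14.4 to 29.8, 32 UMIs in 27 of 155 cells) in HFD. The foam-type interval lay below the resident one in HFD and overlapped it in ND. Macrophages in neither the resident nor the foam-type group had fewer than 3 UMIs of each list, or equal counts of both. They had 1 Pdgfc UMI in 90 ND cells and 0 in 75 HFD cells, with an upper bound of 8.755 CPM in HFD. In B or T cells of the ND library there was no Pdgfc UMI in 739 cells, with an upper bound of 1.355 CPM. Among fibroblasts 32 of 43 ND UMIs and 24 of 29 HFD UMIs were in the subgroup called by Pi16 and Dpp4. In the endothelial gate Pdgfc had 9 UMIs in 2324 ND cells and 3 UMIs in 1150 HFD cells, and 7 and 1 of these were in luminal cells.

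Pdgfd encodes the other CUB domain ligand, which mainly binds receptor beta, and lies on chromosome 9 (6168584 to 6378850, plus strand) with Ddi1 on the opposite strand inside it. The intervals of the endothelial and the fibroblast gate overlapped in both libraries. The endothelial gate had 28.0 CPM (24.9 to 31.2) in ND and 31.7 CPM (27.6 to 36.1) in HFD, and the fibroblast gate 32.8 CPM (27.4 to 38.9) in ND and 23.2 CPM (16.9 to 31.2) in HFD. The mural gate had 7 UMIs in ND (41.0 CPM, 16.5 to 84.4) and none in HFD. In the immune gate 1 UMI was counted in 1402 ND cells and 1 in 667 HFD cells. Within the endothelium the order was luminal, arteriolar, capillary in both libraries. Luminal cells had 70.0 CPM (56.7 to 85.5) in ND and 64.5 CPM (46.0 to 87.8) in HFD, arteriolar cells 33.3 CPM (26.0 to 42.0) and 44.2 CPM (34.9 to 55.1), and capillary cells 19.8 CPM (16.6 to 23.4) and 22.0 CPM (17.8 to 26.8). The ND intervals did not overlap, and in HFD luminal and arteriolar cells overlapped. Fmod fibroblasts, called by Fmod and Wisp2, were in the ND library at 62.6 CPM (42.8 to 88.4), above Pi16 fibroblasts at 29.0 CPM (22.4 to 37.1).

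**Figure D3:**
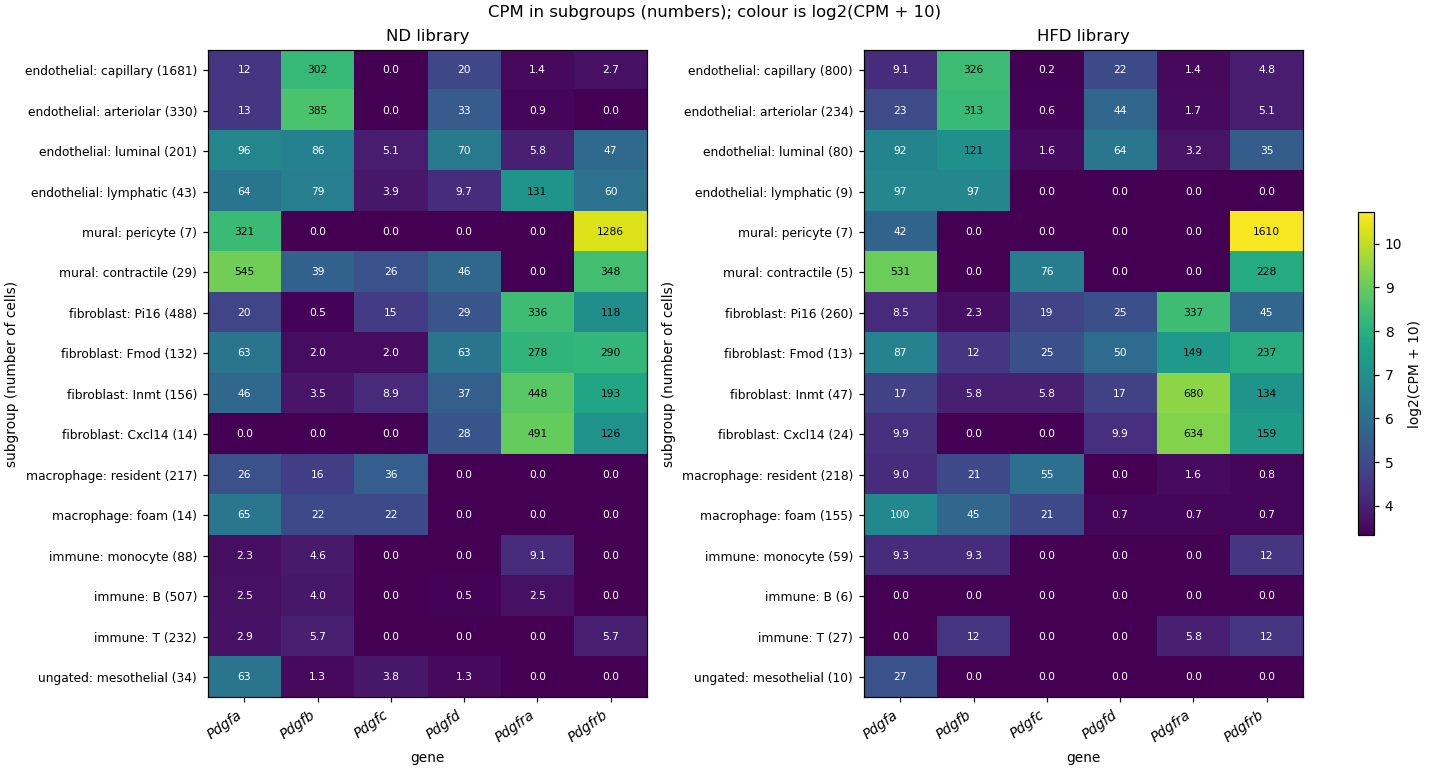
CPM of each gene (columns) in subgroups of cells (rows, number of cells in brackets), with the ND library on the left and the HFD library on the right. Colour is log2(CPM + 10) and printed numbers are CPM. Luminal cells lie above capillary cells in Pdgfa and Pdgfd and below them in Pdgfb, and in HFD resident macrophages lie above foam-type ones in Pdgfc and below them in Pdgfa.

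Pdgfra, the receptor alpha gene and a common marker of fibroblasts, lies on chromosome 5 (75152292 to 75198215, plus strand). In the fibroblast gate it was at 350.4 CPM (332 to 369, 1390 UMIs) in ND and 392 CPM (365 to 422, 743 UMIs) in HFD. No Pdgfra UMI was counted in the 36 ND and 12 HFD mural cells. The upper bounds of the mural level were 21.59 CPM in ND and 73.85 CPM in HFD, below the fibroblast interval of the same library. The immune gate had 10 and 6 UMIs. By subgroup, Pi16 fibroblasts were at 336 CPM (312 to 361) in ND and 337 CPM (306 to 371) in HFD. Inmt fibroblasts, called by Inmt and Gdf10, were at 448 CPM (394 to 507) and 680.3 CPM (563 to 815), and Cxcl14 fibroblasts at 491 CPM (342 to 683) and 634 CPM (488 to 809.9). Fmod fibroblasts were the lowest, at 278 CPM (234 to 328) in ND and 149 CPM (77.2 to 261, 13 cells) in HFD. The Fmod level overlapped that of Pi16 cells in ND and did not in HFD.

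Pdgfrb, the receptor beta gene and a marker of pericytes, lies on chromosome 18 (61045150 to 61085061, plus strand), with no overlapping gene. In the mural gate it was at 451 CPM (356 to 563, 77 UMIs) in ND and 881 CPM (640 to 1182, 44 UMIs) in HFD. This was 2.85-fold and 10.7-fold above the fibroblast gate. Pericytes had 1286 CPM (824 to 1913, 24 UMIs in 7 cells) in ND and 1610 CPM (1139 to 2210, 38 UMIs in 7 cells) in HFD, and contractile cells had 348 CPM (261 to 455, 29 cells) and 228 CPM (83.6 to 496, 5 cells). Of the 38 Pdgfrb UMIs of HFD pericytes 12 were in 1 cell. In both libraries the interval of pericytes was above that of contractile cells. In macrophages there was no Pdgfrb UMI in 321 ND cells and 2 UMIs in 448 HFD cells, although Csf1r, a macrophage receptor gene related to Pdgfrb, was at 852 and 452 CPM there.

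Fibroblasts ordered differently by Pdgfrb than by Pdgfra. Fmod fibroblasts had the highest Pdgfrb level, at 290 CPM (245 to 340.1) in ND and 237 CPM (143 to 369.5) in HFD. In HFD 8 of their 19 Pdgfrb UMIs were in 1 of 13 cells. Their summed level of mural markers was 348 CPM in ND and 2005 CPM in HFD, against 46 and 20 CPM in Pi16 fibroblasts. The part of this RNA in the Fmod Pdgfrb level was not tested. Pi16 fibroblasts were at 118 CPM (104 to 134) in ND and 44.9 CPM (34.1 to 58.0) in HFD, below Fmod cells in both libraries. Inmt fibroblasts lay between them, at 193 CPM (158 to 233) and 134 CPM (84.8 to 201), and their interval overlapped that of Fmod cells in HFD only. The same UMIs were also counted per cell, at a median depth of 3484 UMIs in Fmod and 4264 UMIs in Pi16 cells of ND. Of 132 Fmod cells in ND, 47 had UMIs of both receptors, 26 of Pdgfra only and 26 of Pdgfrb only. Of 488 Pi16 cells in ND, 127 had both, 197 Pdgfra only and 56 Pdgfrb only, and of 260 in HFD, 41 had both, 159 Pdgfra only and 9 Pdgfrb only. In B or T cells of ND each receptor had a UMI in 4 of 739 cells (0.541%), at a median of 3139 UMIs against 4264 in Pi16 cells.

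**Figure D4:**
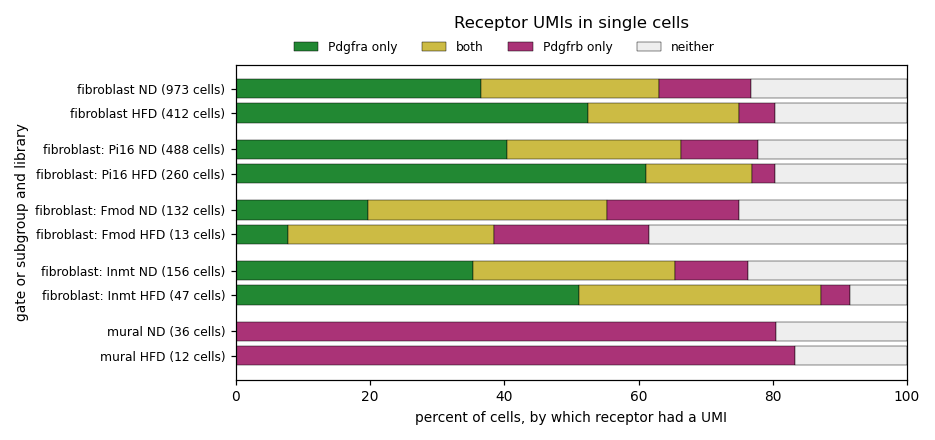
Percent of cells (x axis) with UMIs of Pdgfra only, of both receptors, of Pdgfrb only or of neither, for fibroblast and mural cells of each library (y axis, number of cells in brackets). Mural cells have Pdgfrb UMIs and no Pdgfra UMI, and the Pdgfrb parts of Pi16 fibroblasts are smaller in HFD, where 50 of 260 cells have a Pdgfrb UMI against 183 of 488 in ND.

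In the ND endothelial gate 65 of 117 Pdgfrb UMIs were in luminal cells and 68 of 90 Pdgfra UMIs in lymphatic cells. In the HFD gate the 55 Pdgfrb UMIs were spread over luminal (22), capillary (21) and arteriolar (9) cells and cells of no subgroup (3), and of 11 Pdgfra UMIs 6 were in capillary cells. As a level, Pdgfrb was higher in luminal than in capillary cells in both libraries. Luminal cells had Pdgfrb at 47.4 CPM (36.6 to 60.4, 65 UMIs) in ND and 35.5 CPM (22.2 to 53.7, 22 UMIs) in HFD, while capillary cells had 2.71 CPM (1.63 to 4.22) and 4.76 CPM (2.95 to 7.28). The difference was 4.13 on the log2 scale in ND and 2.90 in HFD, and 1.66 and 1.04 with cells counted in every gate they passed. With 4 markers for a gate it was 1.80 in HFD. Luminal cells also had a summed level of mural markers of 489 CPM in ND and 279 CPM in HFD and of fibroblast markers of 616 and 591 CPM, above those of the whole endothelial gate (189 and 218 CPM for mural markers, 272 and 113 CPM for fibroblast markers). The part of this RNA in the luminal Pdgfrb level was not tested. Of the 90 Pdgfra UMIs in the ND endothelial gate 68 were in 12 cells of the lymphatic subgroup, and all 12 also had Pdgfrb, with 26 UMIs in all. These 12 cells were placed there by Prox1 (122 UMIs, a UMI in every cell) and had no UMI of the lymphatic genes Ccl21a and Mmrn1, whereas the other 31 lymphatic cells had 2441 and 605 UMIs of these genes and no Pdgfra UMI. The 12 cells carried the endothelial genes Pecam1 (1244 CPM) and Cdh5 (706 CPM) in every cell, Dcn at 5396 CPM in every cell and Cytl1 at 2585 CPM in 10 cells, with a median of 21678 UMIs. The other 31 lymphatic cells had a median of 6134 UMIs and Dcn at 344 CPM. These genes were looked at after the Pdgfra value was seen. The HFD library held no such cell among its 9 lymphatic cells.

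Between the diets, the 4 members with a leading gate differed by less than 2-fold there, and Pdgfd by less than 2-fold in the endothelial gate. The log2 ratio of the HFD to the ND level was 0.11 (0.03 to 0.19) for Pdgfb in the endothelial gate, 0.18 (-0.08 to 0.43) for Pdgfd in the endothelial gate and 0.16 (0.03 to 0.29) for Pdgfra in the fibroblast gate. For Pdgfa and Pdgfrb in the mural gate it was -0.79 (-1.69 to 0.00) and 0.97 (0.40 to 1.52). The Pdgfrb ratio was close to 2-fold, and of 9 alternatives it was past 2-fold higher in 3 and past 2-fold lower in 1. The Pdgfa ratio was past 2-fold lower in 2 of 9. The median gene of a gate was itself lower in HFD, by log2 ratios of -0.20 in the endothelial, -0.40 in the mural, -0.16 in the fibroblast and -0.08 in the immune gate. The direction of the smallest ratios turned with the mitochondrial limit. With no limit the Pdgfb and Pdgfd ratios were -0.11 and -0.13, and with a limit of 20% the Pdgfra ratio was -0.14.

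**Figure D5:**
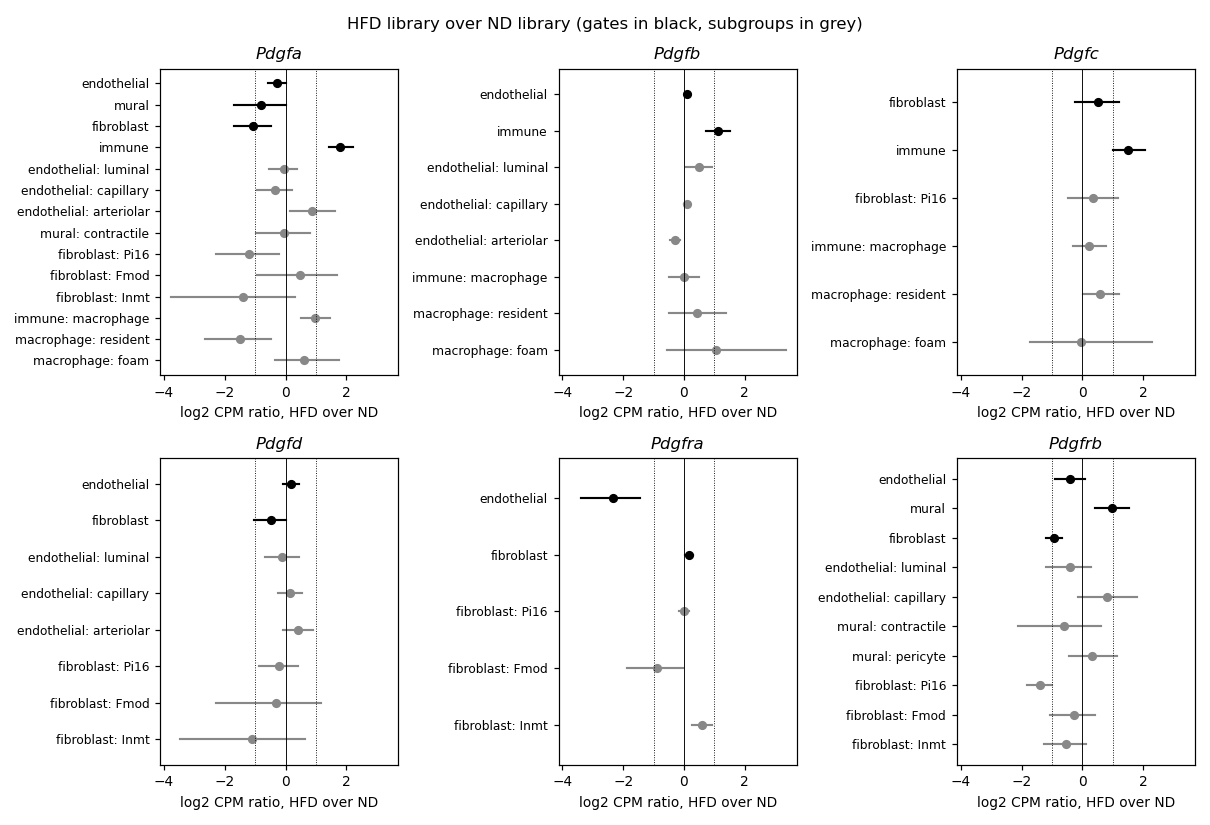
Log2 ratio of the HFD to the ND level (x axis) of each gene in gates (black) and subgroups (grey) with 20 or more UMIs over both diets, with exact 95% intervals for counting error. Dotted lines mark 2-fold. Pdgfa is higher in HFD in the immune gate and lower in the fibroblast gate, and Pdgfrb is higher in the mural gate and lower in Pi16 fibroblasts.

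In the immune gate all 3 ligands with enough UMIs were higher in HFD. Pdgfa was at 13.1 CPM (10.3 to 16.3, 76 UMIs) in ND and 45.4 CPM (39.3 to 52.2, 199 UMIs) in HFD, a log2 ratio of 1.80 (1.41 to 2.20). Pdgfb had a log2 ratio of 1.12 (0.71 to 1.53), and Pdgfc of 1.52 (0.997 to 2.05). A ratio was called from at least 20 UMIs over both diets. All 3 members called in this gate were past 2-fold higher, whereas 6.52% of 11156 genes were past 2-fold higher and 12.5% lower. The make-up of the gate differed too. It held 507 B and 232 T cells in ND and 6 and 27 in HFD, and 321 macrophages in ND and 448 in HFD. Within macrophages alone the log2 ratios were 0.96 (0.50 to 1.46) for Pdgfa, -0.01 (-0.48 to 0.48) for Pdgfb and 0.22 (-0.30 to 0.76) for Pdgfc. The Pdgfa ratio was past 2-fold in 4 of 9 alternatives, at most 1.39 with a mitochondrial limit of 20%. As measured here none of the 3 was past 2-fold, where 4.17% of 9323 genes were past 2-fold higher and 7.86% lower. The macrophages themselves were 14 foam-type, 217 resident and 90 neither in ND and 155, 218 and 75 in HFD. Among those in neither group Pdgfb was at 90.4 CPM (63.6 to 125, 37 UMIs) in ND and 35.6 CPM (19.9 to 58.7, 15 UMIs) in HFD, a log2 ratio of -1.34 (-2.32 to -0.44), and was the 1 of 2 members past 2-fold lower. None was past 2-fold higher there, against 7.27% of 4388 genes lower and 4.6% higher. In foam-type and resident cells the Pdgfb ratios were 1.04 (-0.57 to 3.35, from 3 ND UMIs) and 0.41 (-0.51 to 1.37).

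Among HFD macrophages Pdgfa lay with the foam markers. In the HFD library foam-type macrophages had 100.1 CPM (84.9 to 117, 152 UMIs in 55 of 155 cells) and resident macrophages 9.02 CPM (4.50 to 16.1, 11 UMIs in 11 of 218 cells), a log2 difference of 3.47. Foam-type cells were the deeper ones, with a median of 8647 against 5326 UMIs. After thinning to 1000 UMIs a Pdgfa UMI was left in 9.03% (5.03 to 14.7) of foam-type cells and in none of the 218 resident cells, whose exact upper bound is 1.68%. The ND library held 14 foam-type cells, with 65.4 CPM (29.9 to 124) from 9 UMIs in 2 cells. This interval overlapped that of resident macrophages of ND. Resident macrophages of ND were at 25.8 CPM (17.3 to 37.0), so that the resident level was lower in HFD, with a log2 ratio of -1.52 (-2.67 to -0.47). Pdgfa was the 1 of 3 members past 2-fold lower there and none was past 2-fold higher, against 6.01% and 2.02% of 7721 genes. Resident macrophages carried club cell RNA at 6313 CPM in ND and 0.82 CPM in HFD, and its part in this ratio was not tested. Markers of the mural gate, where Pdgfa was highest, summed to 11.2 CPM in foam-type cells of HFD. The gating rule itself limits this sum, and the part of mural RNA in the foam-type level was not tested.

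In the fibroblast gate Pdgfrb was at 158 CPM (146 to 171, 627 UMIs) in ND and 82.4 CPM (70.0 to 96.4, 156 UMIs) in HFD, a log2 ratio of -0.94 (-1.20 to -0.68). Pdgfra in the same cells had a ratio of 0.16. Pdgfa was at 32.3 CPM (26.9 to 38.4) in ND and 15.3 CPM (10.3 to 22) in HFD, a log2 ratio of -1.08 (-1.71 to -0.48), and was the 1 of 5 members past 2-fold lower, whereas 7.58% of 10930 genes were. None was past 2-fold higher, against 1.92% of genes. Fmod cells, the subgroup with the most Pdgfrb, were 132 of 973 fibroblasts in ND and 13 of 412 in HFD. Within Pi16 fibroblasts the Pdgfrb ratio was -1.40 (-1.84 to -0.98), and within Fmod and Inmt fibroblasts it was -0.29 (-1.06 to 0.40) and -0.53 (-1.25 to 0.13). In fibroblasts of no subgroup it was -0.01 (-0.58 to 0.53), with 100 ND and 40 HFD UMIs, and in Cxcl14 fibroblasts 0.33 (-0.94 to 1.69), with 9 and 16 UMIs. In Pi16 fibroblasts Pdgfa and Pdgfrb were the 2 of 5 members past 2-fold lower, against 6.57% of 9722 genes, and none was past 2-fold higher, against 1.95%. In Fmod fibroblasts none of 4 members was past 2-fold, against 9.84% of 4339 genes higher and 17% lower. In Inmt fibroblasts Pdgfa and Pdgfd, with 3 HFD UMIs each, were the 2 of 4 members past 2-fold lower and none was higher, against 15.1% and 3.49% of 4935 genes. When the 4 subgroups were given equal weight the ratio of the gate was -0.34 for Pdgfrb and -0.059 for Pdgfa. With cells counted in every gate they passed, the Pdgfa ratio was 0.21, the opposite direction. Pi16 fibroblasts had haemoglobin RNA at 1151 CPM in ND and 7789 CPM in HFD and club cell RNA at 6590 and 0.774 CPM, and the part of these in the ratios was not tested.

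The mix of the mural subgroups also differed, with 7 pericytes and 29 contractile cells in ND and 7 and 5 in HFD. Within pericytes the Pdgfrb log2 ratio was 0.32 (-0.45 to 1.13), and within contractile cells that of Pdgfa was -0.04 (-0.97 to 0.79) and that of Pdgfrb -0.61 (-2.12 to 0.60). Neither of the 2 members called in the whole mural gate was past 2-fold, where 5.48% of 1662 genes were past 2-fold higher and 23.2% lower. With a mitochondrial limit of 20% the HFD mural gate held 1 cell and the Pdgfrb ratio was -1.62. Haemoglobin RNA was 71989 CPM in the HFD mural gate against 70.2 CPM in ND. By subgroup it was 151894 CPM in HFD and 160.7 CPM in ND pericytes, and 417.5 and 59.12 CPM in contractile cells. Its part in these ratios was not tested.

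In the endothelial gate Pdgfra was the 1 of 5 members past 2-fold, at 8.04 CPM in ND and 1.58 CPM in HFD, a log2 ratio of -2.34 (-3.40 to -1.44), whereas 9.92% of 12240 genes were past 2-fold lower. No member was past 2-fold higher, against 1.8% of genes. Without the lymphatic subgroup, which held the 12 cells with both receptors, the ratio was -0.37 (-1.56 to 0.73). Within subgroups Pdgfb was lower in HFD in arteriolar cells, with a log2 ratio of -0.30 (-0.46 to -0.14), and higher in capillary and luminal cells, with ratios of 0.11 (0.01 to 0.21) and 0.49 (0.05 to 0.92). Without the 1 HFD luminal cell that held 21 Pdgfb UMIs, the luminal ratio was 0.08 (-0.41 to 0.56). No member was past 2-fold in arteriolar, capillary or luminal cells, where 2.73%, 2.23% and 3.37% of genes were past 2-fold higher and 6.41%, 9.31% and 6.72% lower. Pdgfa in arteriolar cells had a ratio of 0.88 (0.14 to 1.63), from 27 ND and 41 HFD UMIs. Pdgfa in luminal cells had a ratio of -0.07 (-0.54 to 0.39) and Pdgfd of -0.12 (-0.69 to 0.43).

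Of 33 other genes of the PDGF pathway (protein processing, co-receptors, signal transducers, negative regulators and early response genes), most differed by less than 2-fold between the diets. In the endothelial gate 0 of 33 were past 2-fold higher and 2 past 2-fold lower, where 1.8% and 9.92% of all genes were. In the fibroblast gate 0 and 1 of 32 were, against 1.92% and 7.58% of all genes, in the mural gate 0 and 1 of 10, against 5.48% and 23.2%, and in the immune gate 4 and 4 of 32, against 6.52% and 12.5%. The medians of the genes called were log2 ratios of -0.15 in the endothelial and -0.02 in the fibroblast gate, against -0.20 and -0.16 over all genes. The mural gene was Stat3, a signal transducer, with 19 and 2 UMIs. The fibroblast gene was Pdgfrl, which encodes a protein resembling the extracellular part of a PDGF receptor. It was at 97.0 CPM (385 UMIs) in ND and 8.45 CPM (16 UMIs) in HFD, a log2 ratio of -3.52 (-4.34 to -2.80). It was lower in HFD within Pi16 fibroblasts (47.2 and 2.32 CPM), Fmod fibroblasts (337 and 24.9 CPM) and Inmt fibroblasts (129 and 52.3 CPM). Within Pi16 fibroblasts 0 of 32 genes were past 2-fold higher and Pdgfrl the 1 lower. Within Fmod fibroblasts 0 of 20 genes were past 2-fold higher and 5 lower, namely Pdgfrl, Gab1, Nrp1, Fos and Pik3r1, and within Inmt fibroblasts 1 of 26 was higher, Cblb, and 5 lower, namely Ndst1, Fos, Pdgfrl, Sparc and Egr1. Over all genes 17% were past 2-fold lower in Fmod, 15.1% in Inmt and 6.57% in Pi16 fibroblasts, and 9.84%, 3.49% and 1.95% were past 2-fold higher. In the endothelial gate Pdgfrl had 23 UMIs in ND and 0 in HFD, and the upper bound of its log2 ratio was -1.835. The other gene past 2-fold there was Src with 20 and 6 UMIs.

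Among ligand-processing and matrix genes of the endothelial gate, Plat, which encodes tissue plasminogen activator, was at 73.8 CPM in ND and 116 CPM in HFD, a log2 ratio of 0.65 (0.51 to 0.79), and Plau, which encodes urokinase, at 5.18 and 2.59 CPM, a ratio of -0.9996 (-1.85 to -0.22). In the fibroblast gate Sparc, a matrix protein that binds PDGF, had the lowest ratio of this list, -0.68 (-0.73 to -0.63), and Plau the highest, 0.31 (-0.30 to 0.90). Among signal transducers the phosphatase gene Ptpn11 had the highest ratio in the endothelial gate, 0.42 (0.26 to 0.57), next to Src as the lowest. In the fibroblast gate Stat3 had the highest, 0.45 (0.23 to 0.66), and the adaptor gene Gab1 the lowest, -0.75 (-1.37 to -0.18). Of the early response genes in the fibroblast gate, Myc had the highest ratio, 0.46 (0.19 to 0.74), and Fos the lowest, -0.58 (-0.65 to -0.52). Of the negative regulators in the fibroblast gate, which include phosphatases and ubiquitin ligases, Cblb had the highest ratio, 0.43 (0.07 to 0.79), and Rasa1 the lowest, -0.26 (-0.63 to 0.10). In the immune gate the 4 higher genes were Lrp1 (1.53), Nrp1 (1.30), Gab1 (1.19) and Src (1.13), and the 4 lower were St14 (-1.74), Myc (-1.64), Plcg1 (-1.32) and Cblb (-1.19). Within macrophages alone 0 of 29 were past 2-fold higher, and Egr1 was the 1 past 2-fold lower, at -1.14 (-1.22 to -1.06). Over all genes of macrophages 4.17% were past 2-fold higher and 7.86% lower.

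Profiles were compared over 30 points, each a subgroup of at least 20 cells in 1 library, on the log2(CPM + 10) scale. Points of 1 library share its depth and free RNA, so the correlations describe these points only. Of 10791 genes, those most like Pdgfa were Endod1 (r = 0.83), Wrb (0.80) and Tmem246 (0.79), and those most like Pdgfb were Nes (0.92), Adgrl4 (0.89) and Cd93 (0.88). For Pdgfc they were Itsn1 (0.79), Fam213b (0.74) and Wwp1 (0.73), and for Pdgfd Kctd10 (0.94), Lamb2 (0.93) and Msx1 (0.92). For Pdgfra they were Il33 (0.97), Sult5a1 (0.96) and Lum (0.96), the last of which is a marker of the fibroblast gate, and for Pdgfrb Pcdh7, Cacna2d1 and Ror1 (0.93 each). Among the members the closest pair was Pdgfra and Pdgfrb (r = 0.76), followed by Pdgfd and Pdgfrb (0.67) and Pdgfa and Pdgfrb (0.43). The lowest pair was Pdgfb and Pdgfra (-0.42). Mural cells, which had Pdgfrb UMIs and no Pdgfra UMI, entered as 1 point only, contractile cells of ND. Pericytes of both libraries and contractile cells of HFD had fewer than 20 cells and were left out. The r of the 2 receptors therefore describes them mostly outside mural cells.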

How the data were processed

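The authors demultiplexed, aligned and counted each library with Cell Ranger (3.0.1) on mm10 and deposited whole-number UMI counts per gene and barcode. A joined table, whose 24459 barcodes all match the single libraries, was not used. The limits of the study were used to keep cells, 200 genes and 200 UMIs as minimum and 30% mitochondrial RNA as maximum. This left 5416 ND and 2739 HFD cells with 27137322 and 17191279 UMIs. Gates and subgroups were set by marker UMIs (at least 3 markers for a gate, at least 3 UMIs for a subgroup). Doublets were treated by setting cells of several gates apart. Scrublet's own threshold (scanpy 1.11.5) marked 0 ND and 1 HFD cells and had not worked, so its scores served only in an alternative. Counts were summed per library and gate, with exact Poisson intervals for CPM, exact Clopper-Pearson intervals for shares and exact conditional binomial intervals for ratios (scipy 1.17.1), checked on simulated counts. They cover counting error only, and with 1 library per diet no test was made. A ratio was called past 2-fold from 20 UMIs over both diets. The genes named were the members, the 3 genes most like each, the largest and smallest ratios of 33 pathway genes, and marker genes; genes past 2-fold are named as well, and the genes of the 12 lymphatic cells were chosen after their values were seen. The members, lists and rules were chosen with earlier results of these data known. A subgroup of ungated cells is not reported here.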

Additional observations from a re-analysis of the deposited data

Results flagged for a closer look

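For 3 members the intervals of the HFD to ND ratio lay on opposite sides of 0 in different gates. The log2 ratio of Pdgfa was 1.80 in the immune gate and -1.08 in the fibroblast gate. The fibroblast ratio was -0.059 with subgroups weighted equally and 0.21 with cells counted in every gate they passed. The ratio of Pdgfra was 0.16 in the fibroblast gate and -2.34 in the endothelial gate, where it was -0.37 (-1.56 to 0.73) without the lymphatic subgroup. The ratio of Pdgfrb was 0.97 in the mural gate and -0.94 in the fibroblast gate. Within pericytes and within contractile cells the interval of the Pdgfrb ratio held 0. With a mitochondrial limit of 20%, which left 1 HFD mural cell, the mural ratio was -1.62. With 1 library per diet the difference between gates was not tested.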

How the results depend on the processing

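No paired analysis was possible because each diet had 1 library, and for the same reason no fit without a replicate was run. Of 36 ratios, 31 had the same direction under every alternative run and 5 did not. With a mitochondrial limit of 20%, the log2 ratio of HFD to ND was -0.14 for Pdgfra and -0.35 for Pdgfa in the fibroblast gate, -1.395 for Pdgfrb there, and -1.62 for Pdgfrb in the mural gate, which then had 1 HFD cell. Mural over fibroblast Pdgfrb in HFD was then 1.25 on the log2 scale. With no mitochondrial limit the ratio was -0.11 for Pdgfb and -0.13 for Pdgfd in the endothelial gate and 1.31 for Pdgfa in the immune gate. With cells counted in every gate they pass, it was 0.17 for mural Pdgfrb, 1.11 and 0.54 for immune Pdgfa and Pdgfb, and 0.21 for fibroblast Pdgfa, the only one that turned its direction after a 2-fold call. The differences between gates were then 3.49 in ND and 1.22 in HFD for Pdgfa mural over immune, 2.37 and 1.93 for Pdgfb endothelial over immune, 4.30 and 4.515 for Pdgfra fibroblast over endothelial, and 0.84 and 1.76 for Pdgfrb mural over fibroblast. As means over cells, the Pdgfra difference in ND was 6.73. Without mitochondrial, haemoglobin and ribosomal genes the ratio was 0.23 for endothelial Pdgfb and 0.34 for fibroblast Pdgfra, and scaled by the median of ratios it was 0.27 for endothelial Pdgfb. Of 10 alternatives each, the ratio was past 2-fold in 9 for immune Pdgfc, 6 for immune Pdgfb, 4 for fibroblast Pdgfa, 2 for fibroblast Pdgfrb and 8 for endothelial Pdgfra.

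Further alternatives were chosen after seeing the data. Without B and T cells the immune ratios were 1.10 for Pdgfa, 0.48 for Pdgfb and 0.68 for Pdgfc. With fibroblast subgroups weighted equally the ratio was -0.059 for Pdgfa and -0.34 for Pdgfrb. Genes past 2-fold numbered 1434 in the endothelial, 1038 in the fibroblast and 2120 in the immune gate, 571, 342 and 1107 with at least 100 UMIs, and 2470, 2317 and 3294 with at least 1 UMI in each library. Scaling by the median of ratios moved the share of higher genes among them from 15.3% to 26.4% in the endothelial and from 20.2% to 30.3% in the fibroblast gate. Without the HFD luminal cell with 21 Pdgfb UMIs the luminal ratio was 0.08. Levels of small groups, such as 12 HFD mural cells (5 of them contractile), 7 pericytes in each library, 9 HFD lymphatic cells, 13 HFD Fmod fibroblasts and 14 ND foam-type macrophages, rest on few cells.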

Other observations

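The barcodes left out by the mitochondrial and other limits still carried PDGF RNA by gate. In the HFD library 93 left-out barcodes passed the mural gate, with 218 Pdgfrb UMIs (1015 CPM, 885 to 1159) and 41 Pdgfa UMIs (191 CPM, 137 to 259), while the kept mural gate of that library had 44 and 15 UMIs in 12 cells. Left-out fibroblast barcodes had Pdgfrb at 134 CPM (93.4 to 187) in ND and 99.3 CPM (80.6 to 121) in HFD. Left-out immune barcodes had Pdgfa at 1.43 CPM (0.0362 to 7.97) in ND and 4.23 CPM (2.18 to 7.38) in HFD. These levels, like those of kept cells, are scaled to all UMIs, mitochondrial ones included. The median mitochondrial share was 27.16% over all ND barcodes and 50.81% over all HFD barcodes, against 16.83% and 21.88% in kept cells. Levels of left-out barcodes and kept cells therefore do not compare directly. Without mitochondrial UMIs Pdgfrb was at 2048 CPM in the left-out HFD mural barcodes. In left-out fibroblast barcodes it was then at 258 CPM in ND and 175 CPM in HFD. Levels of kept cells are not given on this scale.

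Small immune groups also held Pdgfa RNA. In natural killer cells of the ND library 9 Pdgfa UMIs lay in 3 of 19 cells, with at most 5 in 1 cell. In cells passing both the endothelial and the mural gate Pdgfa was at 220 CPM (183 to 261) in ND and 71.0 CPM (52.7 to 93.6) in HFD, and Pdgfrb at 216 and 286 CPM.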
